A study of Mus musculus with 4 samples.

Results

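The genes described here encode the subunits of the respiratory chain and of ATP synthase in the left ventricle of the mouse, on the nuclear and on the mitochondrial genome. Members were chosen by symbol. Those starting with mt-Nd, mt-Co, mt-Cytb, mt-Atp, Nduf, Uqcr or Atp5 were taken, together with Sdha to Sdhd and the numbered Cox subunits, and assembly factors were left out. Of 32285 genes in the files, 98 symbols matched, and 96 of them held at least 100 UMIs (unique molecular identifiers, each counting 1 captured RNA molecule) over the 4 libraries. These 96 were 13 mitochondrially encoded and 83 nuclear-encoded genes, among 14491 genes of the series that reached the same minimum. The member just inside the minimum was Cox6b2 with 331 UMIs, and outside it were Cox7b2 with 52 UMIs and Cox8c with 0, where a count of 0 allows up to 3. Ndufb1-ps was kept because its symbol matches, although the annotation lists it as a noncoding transcript.

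The samples were 4 droplet libraries of the left ventricle of male C57BL/6J wild-type mice, 1 library for each condition. Young mice were 3 to 5 months old and aged mice 24 to 26 months old. I/R mice underwent 45 min of ischemia by LAD surgery followed by 24 h of reperfusion, and the sham mice are given as healthy and unaltered in one label and as sham operated in another. How many mice contributed to a library is not given in the sources used here, and nuclear RNA is named as the molecule where the study describes single cells. With 1 library per condition no test between conditions could be made, so that age, injury and any other difference between libraries cannot be told apart, and every interval below is a 95% interval for counting error alone.

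Depth differed between the libraries, with 25836175 UMIs in young sham, 39673199 after young I/R, 41356670 in aged sham and 66767829 after aged I/R, over 91124 to 102883 barcodes and with median UMIs per barcode from 244 to 675. Any pair of libraries shared 2366 to 2843 barcode sequences, 2.60% to 2.83% of the smaller library. The 18 cardiomyocyte markers were all detected and took 9.82% to 12.03% of the UMIs, against 0.152% to 0.192% for 13 endothelial, 0.121% to 0.209% for 12 fibroblast and 0.0286% to 0.0604% for 12 macrophage markers. Levels are therefore given for whole libraries as UMIs per 1000000 (CPM), and no cell type was assigned. In such sums, fewer cells of a type and less RNA per cell cannot be told apart. How many of the barcodes hold a cell was not tested. The scale matters, because the median gene was itself 0.50 lower on the log2 scale after I/R in the young, 0.09 higher after I/R in the aged, 0.14 lower in aged sham than in young sham and 0.45 higher in aged I/R than in young I/R.

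The respiratory chain passes electrons from NADH through complex I, or from succinate through complex II, to ubiquinone, and on through complex III and cytochrome c to complex IV, where oxygen is reduced to water. The proton gradient built by complexes I, III and IV drives ATP synthesis by complex V. Complex II is made entirely of nuclear-encoded proteins. The other complexes combine nuclear-encoded subunits with a few hydrophobic core subunits translated inside the organelle from polycistronic transcripts of the mitochondrial genome. Heart muscle is packed with mitochondria, and reperfusion after ischemia is a classic setting of damage to the chain.

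Summed subunit transcripts took a larger share of UMIs after I/R in the young library and a smaller share after I/R in the aged one. The complex II sum, given below, was an exception in the aged pair. Summed nuclear-encoded subunits held 52816 CPM in young sham, 60986 after young I/R, 59770.0 in aged sham and 45468 after aged I/R. Summed mitochondrially encoded subunits held 99990.2 CPM in young sham, 140511 after young I/R, 155637 in aged sham and 99835 after aged I/R. The nuclear sum was lowest in aged I/R and highest in young I/R, under every alternative scale and barcode choice as well. The mitochondrial sums of aged I/R and young sham lay close together, and which was the lower depended on the setting, with a log2 ratio of aged I/R to young sham of -0.00224 here, 0.04 when the median gene-wise ratio set the scale, 0.28 in barcodes with at least 200 detected genes and -0.16 in the 25% of barcodes with the highest cardiomyocyte marker share. The highest mitochondrial sum was that of aged sham, except under the gene-wise scale, where young I/R was above it (0.98 against 0.78 over young sham). Between the young libraries, the log2 ratio of I/R to sham came to 0.21 (interval 0.204 to 0.211) for the nuclear and 0.49 (0.489 to 0.493) for the mitochondrial sum. Between the aged libraries it came to -0.39 (-0.397 to -0.392) and -0.64 (-0.642 to -0.639). Between the sham libraries, the aged one was 0.18 higher in the nuclear and 0.64 higher in the mitochondrial sum, and between the I/R libraries the aged one was 0.42 lower and 0.49 lower.

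Most single members followed the sums. Of 83 nuclear members, 69 were higher after I/R in the young and lower after I/R in the aged, and for 64 of them both intervals excluded 0. A further 6 were higher in both I/R libraries, 7 were lower in both, and 1 was lower in the young and higher in the aged. The aged I/R library gave the lowest value for 68 of the 83. Median log2 ratios over the nuclear members were 0.18 for the young pair (I/R over sham), -0.41 for the aged pair, 0.14 for aged over young sham and -0.44 for aged over young I/R, each on the opposite side of 0 from the all-gene median given above. Among the 13 mitochondrial members, 10 were higher in young and lower in aged I/R. Taken by pair, 75 of 83 nuclear and 11 of 13 mitochondrial members were higher in young I/R, against 23.3% of all genes. In the aged pair 7 nuclear and 3 mitochondrial members were higher, against 57.7% of all genes. The share of all genes with both directions, or with their lowest value in aged I/R, was not computed.

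**Figure D1:**
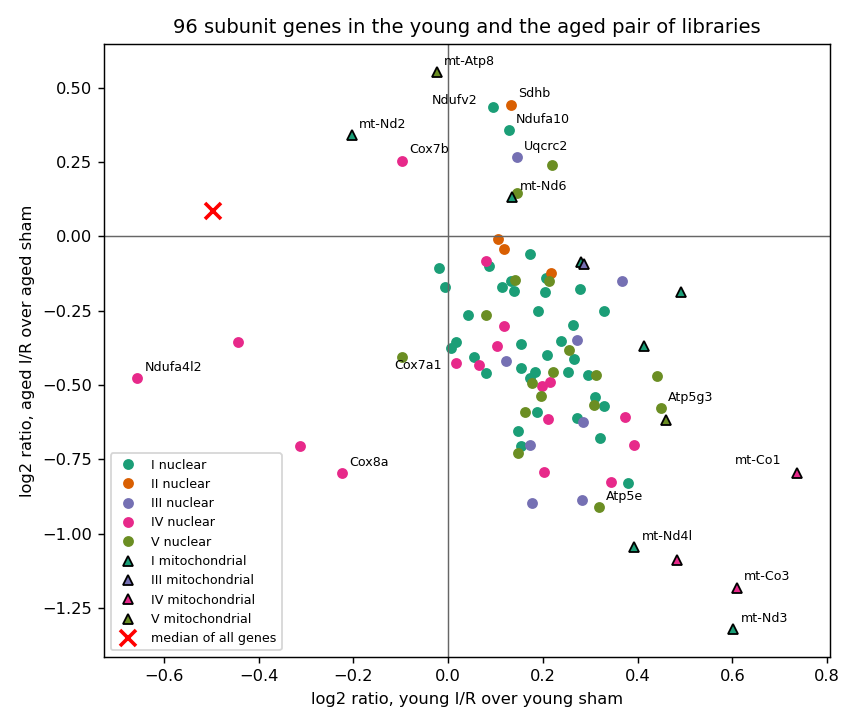
Each point is 1 of the 96 subunit genes, placed by its log2 ratio of CPM in young I/R over young sham (horizontal) and in aged I/R over aged sham (vertical), with circles for nuclear and outlined triangles for mitochondrially encoded genes, colored by complex. Most points lie in the lower right part, higher in young I/R and lower in aged I/R, while the median of all genes, the red cross, lies in the upper left.

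Changes past 1.5-fold were counted against the whole transcriptome. In the young pair, 3 of 96 members were at least 1.5-fold higher (3.12%, against 5.76% of all genes) and 1 was at least 1.5-fold lower (1.04%, against 45.2% of all genes). The 3 were mt-Nd3, mt-Co1 and mt-Co3, and the 1 was Ndufa4l2. In the aged pair no member was 1.5-fold higher, against 15% of all genes, and 26 were 1.5-fold lower (27.1%, against 7.97% of all genes). Those 26 were 6 mitochondrial genes and 20 nuclear genes, 6 of complex I, 4 of complex III, 7 of complex IV and 3 of complex V, and none of complex II. In aged over young sham, 5 members were 1.5-fold higher (5.21%, against 7.81% of all genes), namely mt-Nd3, the 3 mt-Co genes and Cox4i2, and none was 1.5-fold lower, against 18.3% of all genes. In aged over young I/R none was 1.5-fold higher, against 40.9% of all genes, and 23 were 1.5-fold lower (24%, against 3.38% of all genes). The share of lower members was thus above the background in both comparisons that involve aged I/R, and below it in the other 2.

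The 5 complexes differed in how strongly they took part. Complex IV, cytochrome c oxidase, had the widest span through its mitochondrial genes. Its 3 mitochondrial genes summed to 51476 CPM in young sham, 80268 after young I/R, 92331 in aged sham and 46839 after aged I/R, which gave a log2 of 0.64 (0.638 to 0.644) for the young and -0.98 (-0.981 to -0.977) for the aged pair. Its 17 nuclear genes summed to 14131, 16221, 16116 and 11531 CPM in the same order, with log2 ratios of 0.20 and -0.48. Ndufa4 and Ndufa4l2 were counted among them throughout, and not in complex I. The complex IV sums thus moved in one direction in both genomes, and by more in the mitochondrial one. Among the nuclear sums, the log2 ratios of the 2 ages lay further apart in complex III (-0.73, aged minus young) than in complex IV (-0.68).

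Complex III, which hands electrons from ubiquinol to cytochrome c, showed the opposite balance in the aged pair and in aged over young I/R. Between the I/R libraries its nuclear log2 ratio was -0.55 and its mitochondrial one 0.14. In the young pair its mitochondrial log2 ratio was 0.29 and its nuclear one 0.22, and in aged over young sham they were 0.52 and 0.17. Its 8 nuclear genes summed to 5938 CPM in young sham, 6895 after young I/R, 6698 in aged sham and 4700.0 after aged I/R. The log2 ratio of the aged pair was -0.51 (-0.518 to -0.504). Its only mitochondrial gene, mt-Cytb, which encodes cytochrome b, held 7894, 9633, 11331 and 10617 CPM, a log2 ratio of -0.09 (-0.10 to -0.09) in the aged pair. The sum of the nuclear partners of cytochrome b was therefore lowest in aged I/R, as were 7 of the 8 genes but not Uqcrc2, while mt-Cytb was above both young libraries. Relative to young I/R its log2 ratio was 0.14, which turned to -0.30 when the median gene-wise ratio set the scale and to -0.02 per 1000000 UMIs without the 13 mitochondrial genes, Gm42418 and Malat1.

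Complex I, the NADH dehydrogenase, had, in the same order of libraries, sums of 15365, 17434, 16923 and 13243 CPM over its 37 nuclear genes, and of 29504, 35572, 36624 and 31896 CPM over its 7 mitochondrial genes. The log2 ratios of the aged pair were -0.35 and -0.20. Complex V, the ATP synthase, had sums of 16234, 19152, 18836 and 14710.2 CPM over 17 nuclear genes and 11117, 15038, 15351 and 10483 CPM over mt-Atp6 and mt-Atp8. Its aged ratios were -0.36 and -0.55. In complex I the nuclear sum differed more between the aged libraries, and in complex V the mitochondrial sum did.

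Complex II, succinate dehydrogenase, was not lower in aged I/R than in aged sham. Its 4 genes summed to 1148 CPM in young sham, 1284 after young I/R, 1197 in aged sham and 1284 after aged I/R, so that the I/R libraries held equal levels, with a log2 ratio of 0.00 (-0.016 to 0.016) between them. The I/R over sham ratio was 0.16 (0.141 to 0.182) in the young and 0.10 (0.085 to 0.117) in the aged mice, the only positive aged ratio among the complex sums of either genome. Both statements rest on the scale, since under the scaling by gene-wise ratios the aged ratio of complex II was 0.00 and the ratio between the I/R libraries -0.44. Of the 4 genes only Sdhb, the iron-sulfur subunit, was higher in aged I/R than in aged sham. It held 425, 466, 379 and 516 CPM, a log2 ratio of 0.44 (0.42 to 0.47) in the aged pair. Sdha, the flavoprotein that oxidizes succinate, held 442, 515, 532 and 488 CPM and was 0.12 lower. Sdhc and Sdhd, the membrane anchors, were 0.04 (interval -0.08 to -0.00) and 0.01 (-0.07 to 0.05) lower in aged I/R than in aged sham.

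**Figure D2:**
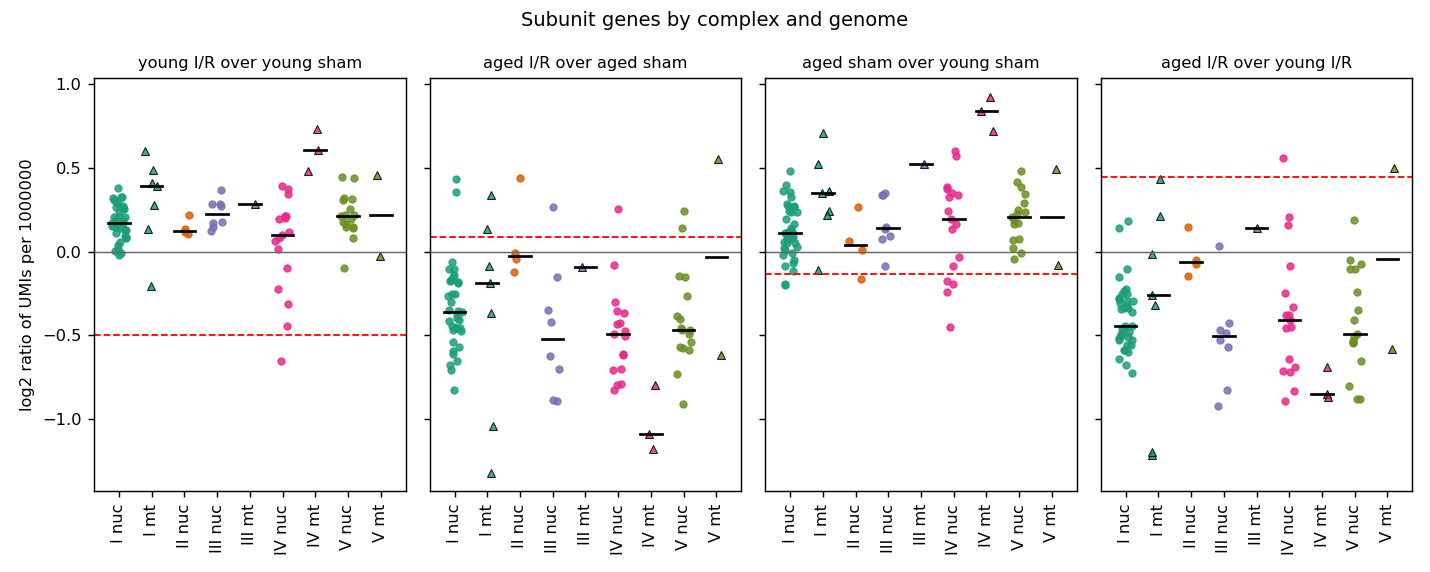
Log2 ratios of CPM (vertical axis) of the 96 subunit genes in the 4 comparisons, by complex and genome (nuc, nuclear, circles; mt, mitochondrial, triangles). Black bars are medians and the red dashed line is the median of all 14491 genes; in the aged pair the 3 mt-Co genes lie between -0.80 and -1.18, under the medians of all nuclear groups.

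The balance of subunit UMIs between the 2 genomes shifted accordingly. Because both sums come from 1 library, this ratio does not depend on how libraries are scaled. For all members together, mitochondrial UMIs per nuclear subunit UMI numbered 1.89 in young sham, 2.30 after young I/R, 2.60 in aged sham and 2.20 after aged I/R. In complex IV the ratio was 3.64, 4.95, 5.73 and 4.06, higher after I/R in the young and lower after I/R in the aged. In complex V it was 0.685, 0.785, 0.815 and 0.713, with the same pattern. In complex I it was 1.92, 2.04, 2.16 and 2.41, and in complex III 1.33, 1.40, 1.69 and 2.26, highest in aged I/R in both. The sums of complexes I and III on one side and IV and V on the other thus went opposite ways in the aged pair, with log2 changes of 0.15 and 0.42 against -0.50 and -0.19. Single genes did not all follow. Complex III has only mt-Cytb here. In complex I, mt-Nd1, mt-Nd3 and mt-Nd4l lay below the nuclear ratio of -0.35, and mt-Nd2, mt-Nd4, mt-Nd5 and mt-Nd6 above it. In complex V, mt-Atp6 lay below the nuclear ratio of -0.36 and mt-Atp8 above it.

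The 13 mitochondrial genes did not move as one block, although 12 of them are read from the same strand. The 3 genes of cytochrome c oxidase shared a direction in both pairs. mt-Co1, the catalytic subunit, held 23095 CPM in young sham, 38451 after young I/R, 41377 in aged sham and 23827 after aged I/R. mt-Co2, which receives electrons from cytochrome c, held 11574, 16171, 19070 and 8960 CPM, and mt-Co3 held 16808, 25646, 31884 and 14052 CPM. All 3 had their highest value in aged sham, and under the gene-wise scale in young I/R. mt-Co2 and mt-Co3 were lowest in aged I/R, except for mt-Co3 in barcodes with at least 200 detected genes, and mt-Co1 was lowest in young sham, except in cardiomyocyte-rich barcodes.

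Among the complex I genes of the mitochondrial genome, the extremes were the neighbors mt-Nd3 and mt-Nd4l on one side and mt-Nd2 on the other. Of these, mt-Nd3 held 2251 CPM in young sham, 3415 after young I/R, 3675 in aged sham and 1471 after aged I/R. Its aged log2 ratio of -1.32 (-1.33 to -1.31) was the lowest of all 96 members. mt-Nd4l held 2136, 2805, 2526 and 1224 CPM, with a ratio of -1.04 (-1.06 to -1.03). mt-Nd2 instead held 7386, 6415, 6852 and 8670 CPM. Its ratio was -0.20 (-0.21 to -0.19) in the young and 0.34 (0.33 to 0.35) in the aged pair, so the gene ran against the sum in both ages. mt-Nd1, mt-Nd4 and mt-Nd5 were between these extremes, with aged ratios of -0.37, -0.09 and -0.19. mt-Nd6, the single gene on the other strand, was scarce and held 180, 197, 209 and 229 CPM, with ratios of 0.13 (0.08 to 0.19) in the young and 0.13 (0.09 to 0.17) in the aged pair. The gene mt-Nd6 and the end of mt-Nd5 overlap on opposite strands.

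Of the ATP synthase genes, mt-Atp6, the proton channel subunit, held 10499 CPM in young sham, 14431 after young I/R, 14766 in aged sham and 9625 after aged I/R. mt-Atp8 held 618, 607, 585 and 858 CPM, and its aged ratio of 0.55 (0.53 to 0.58) was the highest of all 96 members. Its share of the UMIs of the pair was 5.56%, 4.04%, 3.81% and 8.19%. Both genes lie on 1 bicistronic mRNA, and their reading frames share 43 bases at chrM:7927-7969 (GRCm38, plus strand). A similar pair is mt-Nd4l with mt-Nd4, where mt-Nd4l took 21.4%, 22.7%, 20.1% and 11.5% of the UMIs and the frames share 7 bases at chrM:10167-10173. The shared bases are shown in capitals with 9 bases on either side, because a read that covers them belongs to both genes, and how such reads were assigned bears on these shares and was not tested.

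mt-Atp8 end and mt-Atp6 start, chrM:7918-7978: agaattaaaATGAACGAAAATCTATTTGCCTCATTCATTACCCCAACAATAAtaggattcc

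mt-Nd4l end and mt-Nd4 start, chrM:10158-10182: cctactacaATGCTAAaaattattc

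**Figure D3:**
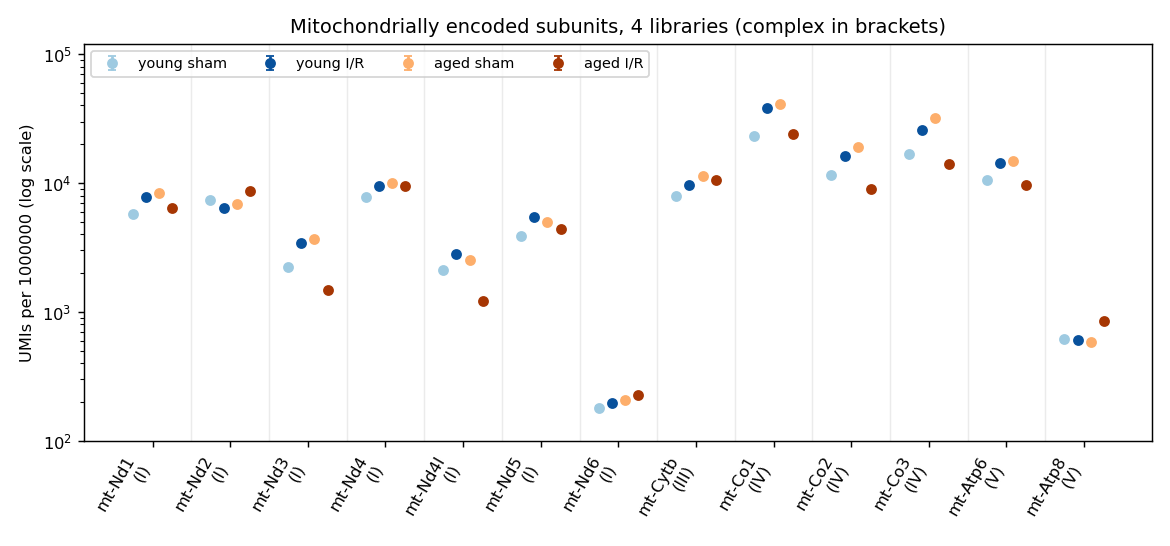
CPM on a log axis of the 13 mitochondrially encoded genes in each library, with the complex in brackets and bars for the exact Poisson 95% interval, which are mostly smaller than the points. mt-Nd2, mt-Nd6 and mt-Atp8 are highest in aged I/R (dark brown) on this scale, whereas mt-Nd3, mt-Nd4l, mt-Co2, mt-Co3 and mt-Atp6 are lowest there.

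Nuclear subunits of the catalytic cores went different ways in the aged pair. In complex I, Ndufv1, which binds NADH, held 389, 489, 474 and 398 CPM in the order of libraries above, and Ndufs1, with iron-sulfur clusters, held 296, 326, 314 and 277. Both were higher in both young I/R and aged sham than in young sham. In complex III, the Rieske protein Uqcrfs1 held 428, 516, 469 and 368 CPM and the core protein Uqcrc1 held 806, 1039, 860 and 774. The catalytic subunit of ATP synthase, Atp5b, held 2121, 2347, 2053 and 2269 CPM, while Atp5a1, with which it alternates in the same ring, held 2031, 2756, 2711 and 1957. The partners diverged in the aged pair, with log2 ratios of 0.14 (0.13 to 0.16) for Atp5b and -0.47 for Atp5a1.

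Atp5b was 1 of only 7 nuclear members that were higher in aged I/R than in aged sham. The others were Atp5c1, the central stalk subunit of ATP synthase (0.24), Cox7b of complex IV (0.25), which was singled out after its values were seen, the complex III core protein Uqcrc2 (0.27), Ndufa10 (0.36) and the iron-sulfur subunit Ndufv2 (0.43) of complex I, and Sdhb (0.44). Ndufv2 held 343, 367, 300 and 405 CPM, and Ndufa10 held 483, 528, 468 and 599. All but Cox7b were also higher after I/R in the young, and Cox7b was 0.10 lower. The 7 were drawn from all 5 complexes.

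At the other end of the aged pair were small subunits. Atp5e, the epsilon subunit of ATP synthase, held 875, 1091, 1113 and 592 CPM, a log2 ratio of -0.91 (-0.93 to -0.89). Uqcr11 and Uqcr10, small membrane subunits of complex III, had ratios of -0.90 and -0.89. Across the 83 nuclear members, the aged ratio had a Spearman correlation of 0.51 with annotated transcript length, against 0.19 across 14481 genes. The 58 members with a median transcript under 1000 bases had a median ratio of -0.46 and the 25 longer ones of -0.15, and the 7 members that were higher in aged I/R had lengths from 1001 to 2020 bases. Among all genes the medians were -0.16 for 1413 short and 0.11 for 13068 longer ones. In the young pair the correlation over the members was -0.08. The points share the same libraries and depth, genes are not independent replicates, and the part that length plays in the aged ratio was not tested.

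Some subunits exist as alternative isoforms, and the share of an isoform within its set is free of library scaling. UMI shares are compared here between libraries, not between genes. Cox7a1, the heart and skeletal muscle form of subunit VIIa, held 1117 CPM in young sham, 1129 after young I/R, 818 in aged sham and 608 after aged I/R. Cox7a2, the form found in most tissues, held 506, 582, 645 and 372 CPM. Cox7a1 made up 68.8% (68.4 to 69.3) of the pair in young sham and 66.0% (65.6 to 66.3) in young I/R, but 55.9% (55.5 to 56.3) in aged sham and 62.0% (61.7 to 62.4) in aged I/R. Both aged libraries were thus below both young ones. Between the sham libraries Cox7a1 had the lowest ratio of all nuclear members, -0.45 (-0.47 to -0.43), while Cox7a2 was 0.35 higher. The difference of -0.80 between their log2 ratios was -0.81 in barcodes with at least 200 detected genes and -0.82 in the 25% of barcodes with the highest cardiomyocyte marker share. The latter differed little from all barcodes, with a median marker share of 13.7% against 10.6% in young sham and 12.3% against 10.2% in aged sham.

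The muscle form of subunit VIII, Cox8b, held 1227, 1317, 1039 and 804 CPM in the same order and made up 90.9%, 92.6%, 88.1% and 90.9% of its pair with Cox8a. It was higher relative to Cox8a after I/R in both ages, and lower in each aged library than in the young library of the same treatment. The muscle form of subunit VIa, Cox6a2, took 96.7% to 97.0% of its pair with Cox6a1 in every library. Subunit c of ATP synthase, which forms the rotating ring, is encoded by 3 genes for an identical mature protein. Atp5g1 gave 43.9% of its UMIs in young sham, 35.5% after young I/R, 37.4% in aged sham and 39.7% after aged I/R, and Atp5g3 gave 49.5%, 58.4%, 56.2% and 52.8%. Atp5g1 was lower after I/R in the young (-0.10), where Atp5g3 had the highest ratio of all nuclear members (0.45, interval 0.43 to 0.47), ahead of Atp5a1 (0.44) and Cox5a (0.39).

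The isoforms Ndufa4l2, Cox4i2 and Cox6b2, known from hypoxic cells or from other tissues, were rare. Ndufa4l2, a hypoxia-responsive relative of Ndufa4, held 16.6 CPM in young sham, 10.5 after young I/R, 21.7 in aged sham and 15.6 after aged I/R, and took 1.76%, 0.887%, 1.81% and 2.30% of the pair. It had the lowest ratio of all nuclear members in the young pair, -0.66 (-0.85 to -0.46), and the highest in aged over young I/R, 0.56 (0.40 to 0.73). Cox4i2, the form of subunit IV known from lung and hypoxic cells, held 10.0, 8.07, 15.2 and 9.32 CPM beside Cox4i1 at 2206, 2856, 3284 and 2153 CPM. Both Cox4 genes were higher in aged than in young sham, by 0.60 (0.39 to 0.82) and 0.57 (0.56 to 0.59), while after I/R in the young Cox4i2 had a ratio of -0.31 (-0.55 to -0.07). The share of Cox4i2 in the pair was 0.452% (0.399 to 0.511) in young sham, 0.282% (0.252 to 0.314) after young I/R, 0.461% in aged sham and 0.431% after aged I/R, lowest in young I/R. Cox6b2, known from testis, held 1.66 to 2.40 CPM, and none of its 4 ratios had an interval that excluded 0. In the young pair several marker sums were lower after I/R, as Ndufa4l2 was. They were lower by 0.19 for endothelial (3 of 13 markers higher), 0.28 for fibroblast (1 of 12) and 0.41 for mural cells (0 of 7). Macrophage and erythroid sums were lower by 0.50 (3 of 12 higher) and 0.39 (0 of 5). Of all genes 23.3% were higher in this pair, with a median of -0.50. The neutrophil and atrial sums were higher by 2.75 and 0.96. In the aged pair Ndufa4l2 had a ratio of -0.48, beside -0.11 for the endothelial, -0.43 for the fibroblast and -0.03 for the mural sum. The macrophage and erythroid sums were at -0.16 and -0.72, and the median of all genes was 0.09. The part of these cells in its ratio was not tested.

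**Figure D4:**
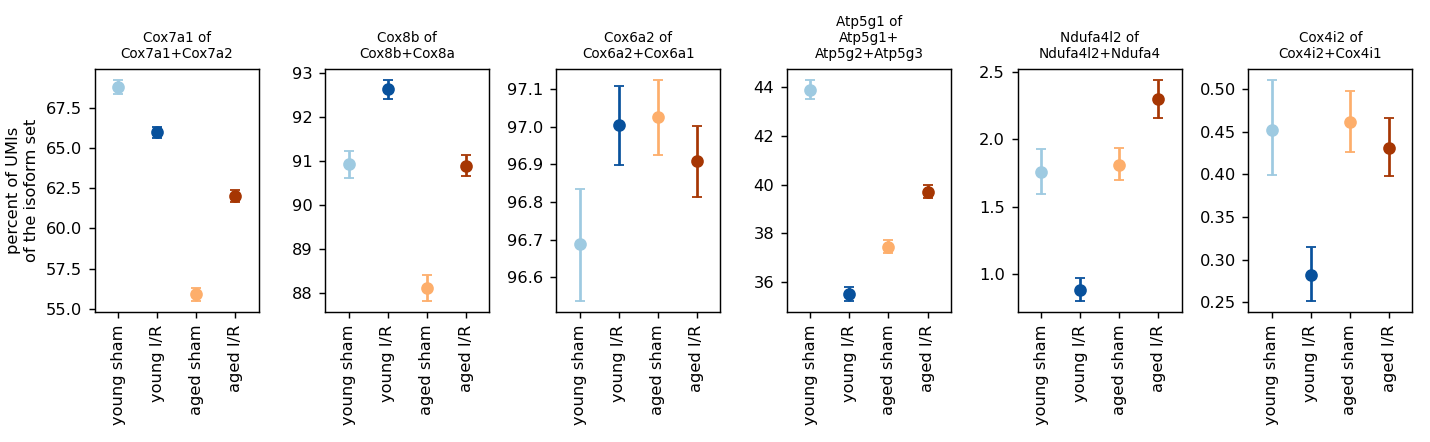
Share of 1 isoform in the UMIs of its set (percent, vertical axes of different range that do not start at 0) in the 4 libraries, with exact binomial 95% intervals. Cox7a1 takes 68.8% in young sham and 55.9% in aged sham, whereas the share of Cox6a2 lies between 96.7% and 97.0%.

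The promoters of 4 nuclear members are printed as examples chosen after their values were seen, the isoforms Cox7a1 and Cox7a2 and genes with a high (Sdhb) and a low (Uqcr11) aged ratio. Promoters from RefSeq (GRCm38.p6, 250 bases before and 50 after the start) were matched by symbol for 66 of the 83 nuclear members. The factors NRF1, GABP, YY1 and ERR are textbook regulators of nuclear respiratory genes. Their cores were searched on both strands as GCATGCG (NRF1), CCGGAAG (the ETS core bound by GABP), AAGATGG (YY1) and AAGGTCA (ERR), together with the GC box GGGCGG. The NRF1 core lay in 10 of 66 promoters (15.2%, against 3.64% of 27025 promoters in the table), the ETS core in 16 (24.2%, against 9.12%), the YY1 core in 9 (13.6%, against 6.48%), the ERR core in 8 (12.1%, against 4.66%) and the GC box in 26 (39.4%, against 35.9%). In 19 promoters none of them was found. Member promoters had a median GC content of 57.8%, against 52.7% in the table, and a match in the letters is not a binding site. The bases before the start are shown 5′ to 3′ along the gene, with matches in capitals.

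Cox7a1, chr7:30183921-30184170, plus strand: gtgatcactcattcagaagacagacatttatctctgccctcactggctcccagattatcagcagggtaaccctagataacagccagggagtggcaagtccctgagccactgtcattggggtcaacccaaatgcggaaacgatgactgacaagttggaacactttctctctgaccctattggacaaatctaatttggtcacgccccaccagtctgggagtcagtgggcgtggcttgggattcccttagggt

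Cox7a2, chr9:79759854-79760103, minus strand: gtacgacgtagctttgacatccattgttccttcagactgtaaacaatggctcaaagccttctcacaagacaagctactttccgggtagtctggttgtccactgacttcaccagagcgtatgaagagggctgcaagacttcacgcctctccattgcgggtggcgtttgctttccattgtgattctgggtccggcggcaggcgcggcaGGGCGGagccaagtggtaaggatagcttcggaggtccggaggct

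Sdhb, chr4:140961021-140961270, plus strand: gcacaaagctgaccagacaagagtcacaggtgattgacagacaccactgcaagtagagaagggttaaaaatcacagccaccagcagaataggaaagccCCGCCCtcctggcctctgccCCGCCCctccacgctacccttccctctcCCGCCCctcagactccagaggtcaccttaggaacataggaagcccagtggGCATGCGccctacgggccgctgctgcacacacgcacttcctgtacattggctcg

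Uqcr11, chr10:80406822-80407071, minus strand: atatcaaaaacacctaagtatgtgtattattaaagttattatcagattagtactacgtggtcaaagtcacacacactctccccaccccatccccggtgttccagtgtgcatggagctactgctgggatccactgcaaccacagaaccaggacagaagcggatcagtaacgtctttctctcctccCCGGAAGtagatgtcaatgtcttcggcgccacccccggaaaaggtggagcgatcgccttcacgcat

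Cox7a1 held none of the 5 sequences in this window, and Cox7a2 held a GC box that began 44 bases before the start. Sdhb had an NRF1 core that began 54 bases before the start and 3 GC boxes on the opposite strand. Uqcr11 had an ETS core that began 66 bases before the start, and its NRF1 core lay in the 50 bases after the start, which are not shown. Sdhb and Uqcr11 both held an NRF1 and an ETS core within the 300 bases.

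Within libraries, barcodes with a larger mitochondrial share also held more nuclear-encoded subunits. Mitochondrial subunits took a median share per barcode of 10.6% in young sham, 14.2% after young I/R, 15.9% in aged sham and 10.1% after aged I/R. Thinned to 200 UMIs per barcode, the medians were 10%, 14%, 16% and 10% over the 66286, 98275, 95918 and 91124 barcodes that held so many. When barcodes were split into quartiles by this share, nuclear-encoded subunits per 1000000 UMIs other than the 13 mitochondrial genes were 1.81 times as high in the highest as in the lowest quartile in young sham, 1.31 times in young I/R, 1.33 times in aged sham and 1.37 times in aged I/R. Among quartiles of similar mitochondrial share, that of aged I/R held the least, but these were different quartiles of their libraries. They were the highest quartile in young sham and aged I/R, quartile 3 in young I/R and quartile 2 in aged sham. Quartiles with 15.1% in young sham, 15.0% after young I/R, 14.9% in aged sham and 15.0% after aged I/R held 74542, 74914, 70785 and 58581 nuclear subunit UMIs per 1000000. These quartiles differed in depth, with a median of 209, 377, 402 and 566 UMIs per barcode, and in every library the highest quartile was shallower than the lowest, at 209 against 331 in young sham and 566 against 857 in aged I/R. The part of depth and of the unlike quartiles was not tested.

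Malat1, a nuclear-retained RNA, ran the other way over the quartiles. In young sham it was at 124286 per 1000000 in the lowest and 49358 in the highest quartile, and in aged I/R at 63558 and 35799. Across whole libraries Malat1 held 73437 CPM in young sham, 22223 after young I/R, 28796 in aged sham and 43300 after aged I/R, and the libraries with the most Malat1, young sham and aged I/R, were those with the lowest subunit sums of both genomes. The 6 nuclear RNAs of a short list summed to 7.73%, 2.50%, 3.19% and 4.67% of UMIs. Gm42418, a gene that overlaps ribosomal RNA, took 11.5%, 19.4%, 14.0% and 13.8%. The sum and the median of the 18 cardiomyocyte markers differed in sign. Their sum was 0.15 lower after I/R in the young and 0.24 higher in the aged, whereas their median log2 ratio was 0.15 in the young pair, with 11 higher and 7 lower, and -0.27 in the aged pair, with 8 higher and 10 lower. The subunits thus had the direction of the median and not that of the sum. Of all genes, 23.3% were higher in the young and 57.7% in the aged pair. In the aged pair the markers spread from Ryr2 at 1.19 and Ttn at 0.93 to Actc1 at -0.76.

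Markers of other cells and chambers were scarce but moved with the conditions. The 3 atrial markers (Myl4, Myl7 and Sln) summed to 118 CPM in young sham, 230.0 after young I/R, 104 in aged sham and 78.7 after aged I/R. They were higher in young I/R (3 of 3, log2 of the sum 0.96) and lower in aged I/R (0 of 3 higher, -0.41), the directions of the subunit sums, and -1.55 in aged over young I/R. The 5 neutrophil markers summed to 14.2, 95.5, 23.2 and 95.7 CPM and were higher after I/R in both ages (5 of 5, 2.75 and 2.05). The 12 macrophage markers had sums 0.50 lower in young I/R (3 higher) and 0.16 lower in aged I/R (6 higher), and the 5 erythroid markers sums 0.39 lower (0 higher) and 0.72 lower (1 higher). Beside these marker counts, 23.3% of all genes were higher in the young and 57.7% in the aged pair. The part of nuclear RNA, depth and cell composition in the subunit ratios was not tested.

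**Figure D5:**
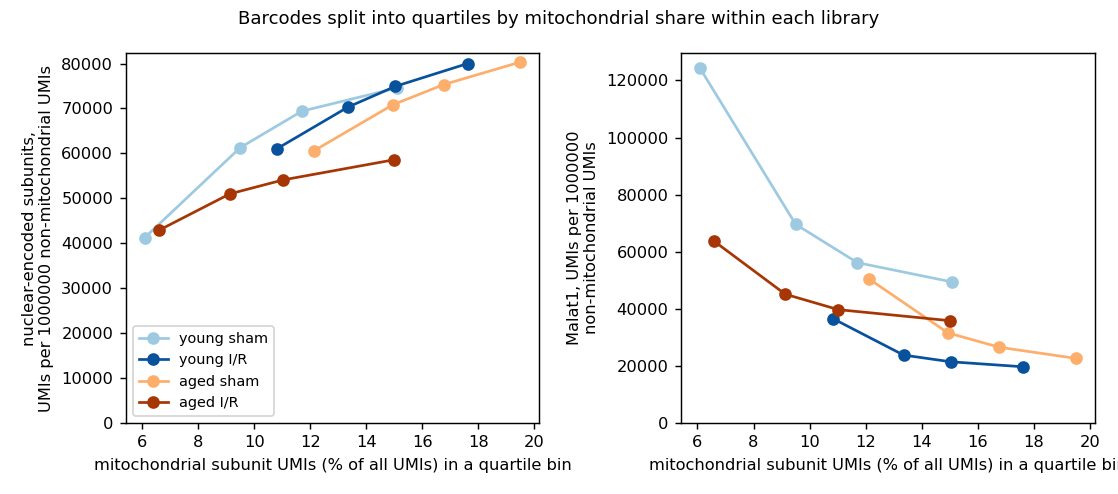
Nuclear-encoded subunits (left) and Malat1 (right), each per 1000000 UMIs outside the 13 mitochondrial genes, against the mitochondrial share of a quartile of the barcodes of each library. In every library the subunits are higher and Malat1 is lower toward the right. Near a share of 15% the aged I/R point, 58581, lies under those of the other libraries, which are not all from the same quartile.

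Genes that serve the chain without belonging to it were counted as lists. Of 54 assembly factors of the 5 complexes, 12 were higher and 42 lower after I/R in the young, and 28 were higher after I/R in the aged, with median log2 ratios of -0.27 and 0.03. These shares, 22.2% and 51.9%, were near those among all genes, 23.3% and 57.7%. Past 1.5-fold were 0 higher and 8 lower (14.8%, against 45.2% of all genes) in the young and 2 higher (3.70%, against 15%) and 8 lower (14.8%, against 7.97%) in the aged pair. Of 22 genes of mitochondrial DNA replication, transcription and RNA processing, such as Tfam and Polrmt, 4 were higher in young I/R (18.2%) and 18 in aged I/R (81.8%), with medians of -0.38 and 0.13, opposite in sign to the mitochondrial sums and beside all-gene medians of -0.50 and 0.09. Past 1.5-fold were 8 lower in the young (36.4%, against 45.2% of all genes) and 3 higher in the aged pair (13.6%, against 15%), both near the background. A list of 15 genes for electron carriers consisted mostly of Coq and Pdss genes, which serve ubiquinone. Of these 15, 6 were higher in young I/R and 3 in aged I/R, with medians of -0.12 and -0.18. In that list Cycs, cytochrome c, held 513, 535, 540.1 and 461 CPM. Cyc1, the cytochrome c1 of complex III whose symbol falls outside the rule, held 537, 552, 512 and 466. Cytosolic ribosomal protein genes, 81 short and abundant transcripts, had medians of 0.41 in the young and -0.20 in the aged pair, higher in 80 and 23 of the 81. That is the direction of the nuclear subunits in both ages, where 75 and 7 of 83 were higher.

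The counts depended on the scale. Under a scaling by the median of gene-wise ratios, 82 of 83 nuclear members were higher in young I/R, with a median of 0.66, and 76 were lower in aged I/R, with a median of -0.51. In the 25% of barcodes with the highest cardiomyocyte marker share, 74 were higher in young I/R and 75 lower in aged I/R, with medians of 0.15 and -0.52. The all-gene shares given above, 23.3% and 57.7% higher, hold for CPM over all barcodes and not for these settings. Gene-wise scaling shifts all genes alike, by 0.49 in the young and -0.10 in the aged pair. The shares of all genes under these settings are not given. The exceptions among mitochondrial genes were less stable in the young pair, where mt-Nd2 was 0.20 lower but 0.28 higher under the gene-wise scaling and 0.09 higher in barcodes with at least 200 detected genes. In the aged pair mt-Nd2 was higher under every setting, by 0.12 to 0.36, as was mt-Atp8, by 0.45 to 0.58.

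At their place in the genome, 28 nuclear members overlap a gene annotated on the opposite strand, and Ndufa13 also overlaps a gene on its own strand. Of the 55 members that overlap neither, 49 were lower in aged I/R than in aged sham, and of the 28 others 27 were. Of all genes 57.7% were higher in that pair. The part of such overlaps in the ratios was not tested.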

How the data were processed

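Left ventricles were processed on the 10x Chromium 3′ system by the authors, and reads were counted against mm10 with Cell Ranger 6.0.2, per the labels. The annotation release is not given in the sources used here. The deposited filtered matrices hold unscaled UMI counts for every barcode and gene. The members, gene lists and alternatives were chosen with earlier results of these data known.

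Counts were summed over all barcodes of a library and divided by its total to give UMIs per 1000000. Ratios carry exact conditional, levels exact Poisson and shares exact binomial (Clopper-Pearson) 95% intervals, which cover counting error only. No test was made with 1 library per group. The ratio and its interval were tested on simulated data. A fold of 1.5 was counted beside the share among the 14491 genes with at least 100 UMIs. Named were all mitochondrial members, isoform sets, core and complex II subunits, and the 3 highest and 3 lowest nuclear members of each comparison with at least 100 UMIs in its libraries. Transcript lengths are medians over the basic GENCODE M21 annotation (GRCm38, the build of mm10), which also gave positions and overlaps. No barcode was removed, and doublets were not sought. Alternatives were gene-wise scaling, barcodes with at least 200 detected genes, a total without abundant RNAs, cardiomyocyte-rich barcodes and no UMI minimum. Python 3.11.15, numpy 2.4.6, scipy 1.17.1, pandas 2.3.3 and matplotlib 3.10.9 were used.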

Additional observations from a re-analysis of the deposited data

Results flagged for a closer look

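The change with I/R went opposite ways in the 2 ages, and this difference was not tested, since each group was 1 library. Summed nuclear-encoded subunits had a log2 ratio of I/R to sham of 0.21 in the young and -0.39 in the aged, a difference of -0.60 (aged minus young, 95% interval -0.606 to -0.598 for counting error). Summed mitochondrially encoded subunits had 0.49 and -0.64, a difference of -1.13 (-1.134 to -1.129). By complex, the difference was -0.06 (-0.09 to -0.03) in complex II and -1.62 (-1.62 to -1.62) for the mitochondrial genes of complex IV.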

How the results depend on the processing

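The sums of nuclear-encoded and of mitochondrially encoded subunits kept their direction in the 4 comparisons under the 5 alternatives. Not all of these could have changed it. Dropping the UMI minimum adds only the scarce Cox7b2 and Cox8c to the nuclear set and nothing to the mitochondrial one. The cardiomyocyte-rich barcodes differed little in marker share from all barcodes. Gene-wise scaling and the total without abundant RNAs shift every ratio of a comparison by a constant. Each shift had the sign of the ratios of both sums, so neither alternative could have reversed a direction here. In the order young pair (I/R over sham), aged pair, both shams (aged over young) and both I/R libraries (aged over young), the nuclear log2 ratios were 0.69, -0.49, 0.32 and -0.87 when libraries were scaled by the median of gene-wise ratios, 0.35, -0.37, 0.29 and -0.43 in barcodes with at least 200 detected genes, 0.35, -0.48, 0.25 and -0.58 per 1000000 UMIs without the 13 mitochondrial genes, Gm42418 and Malat1, and 0.20, -0.48, 0.15 and -0.53 in the 25% of barcodes with the highest cardiomyocyte marker share. The mitochondrial ratios were 0.98, -0.74, 0.78 and -0.94, then 0.75, -0.62, 0.89 and -0.47, then 0.64, -0.73, 0.71 and -0.65, and then 0.58, -0.86, 0.70 and -0.74.

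Counts past 1.5-fold moved more. The shares of all genes past 1.5-fold given above hold only for CPM over all barcodes. No such share is given for the alternatives, so their counts cannot be read against a background. Members higher in the young pair numbered 3 at first, 75 under gene-wise scaling, 10 in barcodes with 200 genes and 8 without the abundant RNAs, and those lower numbered 1 at first and 0 under gene-wise scaling and without the abundant RNAs. Members higher in the aged pair went from 0 to 1 in the cardiomyocyte-rich barcodes. Members lower in the aged pair numbered 26 at first, 34 under gene-wise scaling and 23 in barcodes with 200 genes. They numbered 32 without the abundant RNAs and 36 in the cardiomyocyte-rich barcodes. Members higher in aged over young sham went from 5 to 11, 13 and 8 under the first 3 alternatives. In aged over young I/R, members higher went from 0 to 1 in barcodes with 200 genes and 2 in cardiomyocyte-rich ones, and members lower from 23 to 75 under gene-wise scaling, 49 without the abundant RNAs and 40 in cardiomyocyte-rich barcodes. Gene-wise scaling shifts every ratio of a comparison by a constant, 0.49, -0.10, 0.14 and -0.44 in the order above. Leaving out the abundant RNAs changes only the library totals, and so also shifts every ratio of a comparison by a constant. For the choices of barcodes the cause was not tested. Dropping the UMI minimum left the sums and counts as they were. No paired analysis was possible because each group holds 1 library.

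Depth, 244 to 675 median UMIs per barcode, limits values of single barcodes, and barcodes with at least 200 detected genes were 28.4% of young sham and 98.8% of aged I/R. With that choice the young sums moved to the values above, and the part of depth was not tested. A single library per condition limits all statements on age and injury to these libraries.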
